A study of Mus musculus with 23 samples.

Results

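Sorted small-intestinal villus epithelial cells of 3-day-old and newborn mice were compared by counts of poly(A) RNA per gene. The comparison holds 6 of the 23 libraries of the series, 3 labelled P3 villus (postnatal day 3) and 3 labelled P0 villus (day of birth), chosen by these labels alone. The mice were CD1, an outbred stock, with no mutation or treatment named, and the labels give no sex. The tissue was the medial part of the small intestine. Epithelium was loosened with EDTA, and Epcam-positive cells were sorted by the surface protein CD44, CD44-negative cells being labelled villus and CD44-positive cells crypt. The P3 crypt and P0 crypt libraries (3 each) and the P6 villus (2) and P10 villus (3) libraries are used for values set beside those of P3 and P0 villus. The labels do not say whether libraries of a group came from separate animals, litters or pools, and the p-values speak only of the spread among these libraries, part of which may be technical.

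The interval from P0 to P3 covers the first days of milk feeding and the arrival of microbes in the gut. In the newborn mouse, villus enterocytes take up whole proteins from milk by endocytosis and break them down in large lysosomes, and they absorb milk fat, lactose, iron and zinc. They also carry receptors for microbial products, present peptides on class I molecules, and carry antibodies across the cell. Before birth the tissue is fed with glucose and amino acids from maternal blood, whereas milk is rich in fat, cholesterol and lactose.

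Each P3 villus library held 24857328 to 31948981 counts in genes and each P0 villus library 24437124 to 32869510. Log2 CPM (read counts scaled to a common library size, with TMM factors) correlated at 0.966 to 0.984 within P3 villus, 0.935 to 0.969 within P0 villus and 0.746 to 0.915 between them (Pearson, across genes). The counted transcripts had a mean GC content of 47.3% ± 0.577 in P3 villus and 50.3% ± 0.137 in P0 villus (SD, n = 3 each). Crypt libraries showed the same shift, with 47.4% ± 0.692 at P3 and 50.3% ± 0.339 at P0, and P10 villus stood at 50.5% ± 0.0476. Whether the shift belongs to the age or to the preparation of the P3 libraries cannot be told apart. Mitochondrially encoded genes held 10.5% ± 1.23 of counts in P3 villus and 9.16% ± 3.52 in P0 villus.

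Genes were tested with edgeR's quasi-likelihood test over all 23 libraries, without and with an offset per library for the GC content and length of each transcript. The first is called the plain fit here and the second the fit with offsets. In the plain fit 29.4% of the 16535 tested genes were higher in P3 villus than in P0 villus and 30.6% lower (4857 and 5067 genes at an adjusted p under 0.05). In the decile of genes lowest in GC (median 40.3%) the median log2 difference was 1.31, and in the highest decile (median 59.9%) it was -1.99. With offsets these medians were 0.17 and -0.43, and the rank correlation of the difference with GC content went to -0.124, against -0.698 in the plain fit. Both fits called 1827 genes higher (11.0%) and 2846 lower (17.2%) in P3 villus. CPM values of all 3 P3 villus libraries lay above all 3 of P0 villus for 29.2% of genes, and below for 29.9%. The words rose and fell are used of P3 villus only where both fits called the gene in that direction. Paired values in brackets are log2 differences of P3 villus from P0 villus in the plain fit and in the fit with offsets, each ± standard error where one is given.

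**Figure D1:**
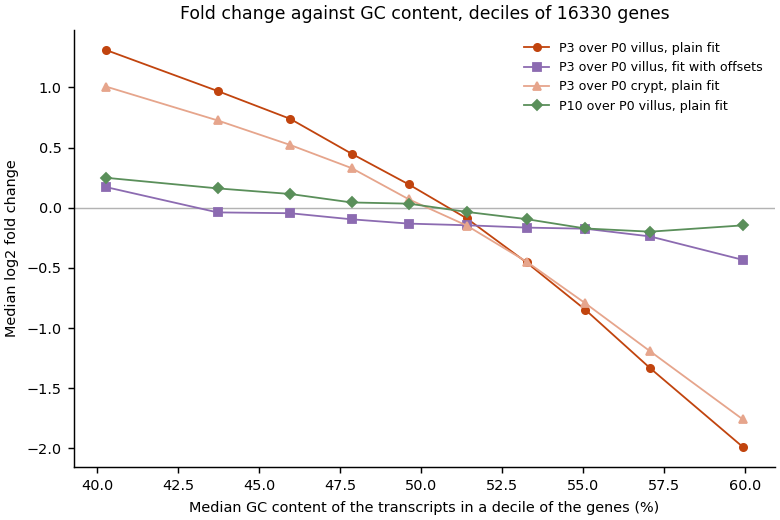
Median log2 difference of genes grouped into deciles of transcript GC content (x axis, median GC in percent) for P3 against P0 villus in both fits, and in the plain fit for P3 against P0 crypt and P10 against P0 villus. The plain P3 villus line runs through 1.31 at the lowest decile and -1.99 at the highest, the crypt line nearly follows it with 1.01 and -1.76, and the line with offsets and the P10 line stay closer to 0.

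Dependence on single libraries was uneven. Without P0 villus 3 both fits called 3574 genes, and without P0 villus 1 they called 5376, against 4673 with all libraries. Of the surface proteins used for sorting, Epcam rose, with 1726, 1661 and 1623 CPM in P3 villus cells, against 1225, 875 and 877 CPM in P0 villus cells (log2 0.75 ± 0.14, adjusted p = 0.000152, in the plain fit and 1.88 ± 0.21, adjusted p = 2.48e-06, with offsets). Cd44 had 10.3, 13 and 17.7 CPM in P3 villus cells, against 10.6, 2.6 and 6.44 CPM in P0 villus cells, and passed in the plain fit only (1.05 and 0.49). Villin (Vil1), a brush border protein that defines enterocytes, was called in neither fit, with 1135, 880.0 and 1149 CPM at P3, against 1516, 1216 and 1175 at P0.

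The summed level of 17 immune cell markers was 66.4 to 91.8 CPM in P3 villus and 87.1 to 116 CPM in P0 villus, of which Csf1r alone made up 63, 63.4 and 87.7 CPM in P3 villus and 84.2, 106 and 113 in P0 villus. Ptprc, the pan-leukocyte protein CD45, had 0.205, 0.204 and 0.314 CPM at P3, against 0.0308, 0 and 0 at P0. It rose, and the call was lost without any one of the 6 libraries. Tyrobp had 0.041, 0.0511 and 0 CPM at P3, against 0, 0 and 0.0408 at P0, and Lyz2 had 0.123, 0 and 0.174 CPM at P3, against 0, 0 and 0.163 at P0, both near 0. The part of these cells in the interferon, antigen presentation and sensing genes described here was not tested. Summed mesenchyme markers were 6.25 to 13.2 CPM in P3 villus and 10.2 to 20.7 CPM in P0 villus, red cell markers 0.628 to 1.53 CPM in P3 villus and 2.47 to 3.51 CPM in P0 villus, and endothelial markers 6.6 to 7.89 CPM in P3 villus and 8.98 to 10.002 CPM in P0 villus. Summed pancreas markers were 23.3 to 65 CPM in P3 villus and 77.2 to 89.958 CPM in P0 villus, most of it Ctrb1 (24.2, 19.2 and 54.5 CPM at P3, against 75.3, 61.6 and 68.5 at P0). Among these cell types outside the gut epithelium, neuron and glia markers had the sum that was higher at P3, with 73.9 to 79.3 CPM in P3 villus and 40.6 to 54.7 CPM in P0 villus and no overlap. It was mostly Ret (68, 53.5 and 52.9 CPM at P3, against 49.3, 32.3 and 29.3 at P0, not called in both fits), and S100b had 7.26, 17.1 and 18.3 CPM at P3, against 3.38, 4.77 and 7.3 at P0. Of its defining genes, Tubb3 had 0.082, 0.204 and 0.0349 CPM at P3, against 0.40, 0.511 and 0.856 at P0 and Uchl1 0, 0.0511 and 0.0698 CPM at P3, against 0.154, 1.36 and 1.02 at P0. In sorted bulk libraries, fewer cells of a type and less RNA per cell cannot be told apart.

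Counts of list members are read against the 11.0% of all tested genes that rose and the 17.2% that fell. The share that rose was 42.2% for interferon-induced genes, 25% for microbial sensing, 24% for antigen presentation, 19.5% for the lysosome and 27.8% for iron, copper and zinc. Antimicrobial effectors and peptide digestion, with 15.4% each, and fatty acid oxidation, with 13.9%, lay near the background. The share that fell was 55.6% for glycolysis, 53.6% for cholesterol synthesis and 46.2% for ribosome biogenesis. It was 25.6% for the cell cycle and 20.7% for hormone-producing cells, the second of them near the background.

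**Figure D2:**
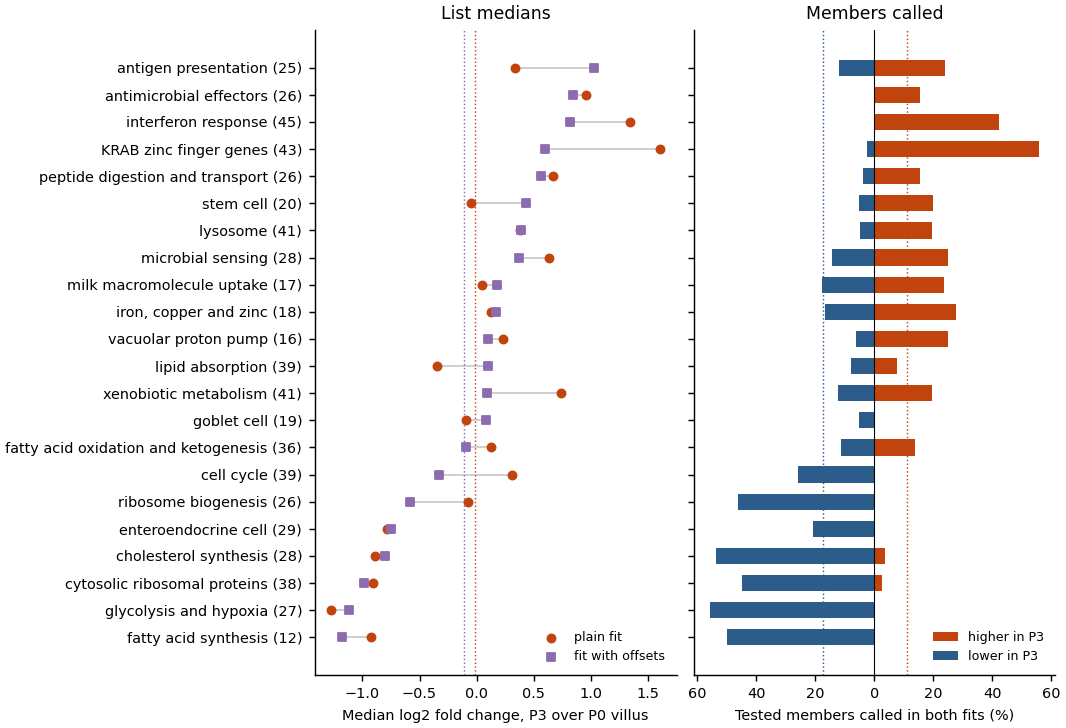
Gene lists by their median log2 difference between P3 and P0 villus in both fits (left panel) and by the percentage of tested members called in both fits, higher drawn to the right and lower to the left (right panel), with dotted lines for all tested genes. The interferon, antimicrobial and sensing lists lie on the higher side, and the glycolysis, sterol, fatty acid and ribosome lists on the lower side.

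Many interferon-induced genes rose in P3 villus cells. Interferons are secreted signals of antiviral and antimicrobial defence, and the genes they induce encode RNA sensors, nucleases, ubiquitin-like modifiers and GTPases that act on microbes. Of 45 tested members of the list 19 rose and none fell, with a median log2 difference of 1.34 in the plain fit and 0.82 with offsets, against -0.02 and -0.11 over all tested genes. The plain fit alone called 28 higher and 3 lower, and with any one of the 6 libraries left out 15 to 20 were called higher in both fits. The median GC content of the members was close to the 50.5% of all tested genes.

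Ifit3, an RNA-binding protein of the antiviral response, had 29.6, 51.1 and 30.9 CPM in P3 villus cells, against 5.91, 7.75 and 5.1 CPM in P0 villus cells (log2 2.57 ± 0.56, adjusted p = 0.000596, in the plain fit and 1.93 ± 0.55, adjusted p = 0.0104, with offsets). Ifi44, an interferon-induced cytoplasmic protein, had 26.7, 26.3 and 14.4 CPM in P3 villus cells, against 0.892, 0.34 and 0.652 CPM in P0 villus cells. The lowest P3 library of Ifi44 stood above every P0 library, with differences of 5.12 ± 0.54 and 3.87 ± 0.54 (adjusted p = 3.25e-07 and 2.87e-05). Oasl2, of the oligoadenylate synthetase family that senses double-stranded RNA, had 145, 167 and 127 CPM in P3 villus cells, against 48.5, 37.5 and 45.5 CPM in P0 villus cells (1.74 and 1.91). Ifit2, of the same family as Ifit3, had 877, 162 and 176 CPM in P3 villus cells, against 29.8, 15.9 and 14.4 CPM in P0 villus cells, with P3 villus 1 far above the other P3 libraries (4.33 and 3.54). Rtp4 (2.42 and 1.87), Zbp1 (2.86 and 2.91), a sensor of nucleic acids in Z conformation, Xaf1 (1.98 and 1.7), Usp18 (1.93 and 1.63), which removes the modifier Isg15 from proteins, and Cmpk2 (1.53 and 1.29) rose without overlap between the groups and kept their call with any library left out.

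The GTPases of the gamma-interferon type moved with them. Igtp, a GTPase that acts at vacuoles holding microbes, had 22.9, 25.9 and 21.2 CPM in P3 villus cells, against 5.87, 5.45 and 4.36 CPM in P0 villus cells (log2 2.15 ± 0.38, adjusted p = 7.36e-05, in the plain fit and 1.82 ± 0.36, adjusted p = 0.000647, with offsets). Irgm2, a regulator of these GTPases, had 45.7, 47.5 and 31.6 CPM in P3 villus cells, against 7.38, 6.6 and 5.59 CPM in P0 villus cells (2.67 and 1.86). Gbp3 (10.8, 12 and 7.78 CPM at P3, against 2.64, 0.851 and 1.51 at P0, log2 2.59 and 2.03), Gbp6 (3.08 and 2.11) and Gbp7 (2.28 and 1.29), guanylate binding proteins, rose as well. Ifih1 (1.72 and 0.71), the RNA sensor MDA5, Parp14 (1.47 and 0.74), Oas3 (1.63 and 2.22), Mx2 (1.36 and 0.92) and Irgm1 (1.34 and 0.48) rose with all libraries in the fit, but the call of both fits was lost for Ifih1 without P0 villus 2, for Parp14 without P0 villus 3 or P3 villus 1, for Oas3 without P0 villus 2, P0 villus 3, P3 villus 1 or P3 villus 2, for Mx2 without P0 villus 3, P3 villus 1 or P3 villus 2, for Irgm1 without P0 villus 1, P0 villus 2, P3 villus 1 or P3 villus 2. These gene families hold close relatives, and reads of near-identical copies could have been split or dropped in counting.

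Other members were not called in both fits. Isg15, the ubiquitin-like modifier, had 14.3, 9.1 and 16.8 CPM in P3 villus cells, against 11.1, 9.11 and 8.16 CPM in P0 villus cells (0.50 and 0.78, called in neither fit). Oas1a had 17.1, 14.7 and 17.8 CPM at P3, against 15.4, 19.3 and 13.5 at P0, and Irf7, a transcription factor of the response, had 99.3, 83.5 and 93.4 CPM at P3, against 107, 92.5 and 97.1 at P0 and passed only with offsets (-0.10 and 0.82). Ifit1 (1003, 846 and 462 CPM at P3, against 173, 185 and 125 at P0, log2 2.26 and 1.11) passed in the plain fit only, with an adjusted p of 0.0533 with offsets. Oasl1, a repressor of Irf7 translation, was lower in the plain fit only (-1.01 and -0.13).

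Outside the lists, Herc6, Slfn2, Ly6e and Sectm1b were among the 12 genes with the largest rise under the fit with offsets. Herc6, the mouse ligase that attaches Isg15, had 53.3, 78.8 and 39.2 CPM in P3 villus cells, against 5.69, 2.55 and 4.0 CPM in P0 villus cells (3.8 and 2.54). Slfn2 had 26.6, 19.8 and 27 CPM at P3, against 2.98, 2.81 and 3.55 at P0 (2.97 and 2.62), and Ly6e, a surface protein that limits entry of some viruses, had 29.8, 32.9 and 52.9 CPM at P3, against 10.4, 7.19 and 13.6 at P0 (1.89 and 2.68). Sectm1b had 295, 213 and 307 CPM at P3, against 49.6, 34.2 and 45.5 at P0 (2.65 and 2.45). Each was called in both fits with any library left out.

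Promoter sequence was read for the members that a RefSeq window covered (250 bases before to 50 after the gene start, GRCm38.p6). The interferon-stimulated response element, searched as GAAANNGAAA on either strand, is the site bound by interferon-activated factors. It lay in 19 of 32 matched members of the list, against 1079 of 27025 genes with a window (3.993%). Among the 13 members with a window that rose, 8 held it: Gbp3, Gbp7, Ifih1, Ifit3, Igtp, Irgm1, Irgm2 and Oas3. That share was close to the 19 of 32 over all matched members, so the element did not set apart the members that rose. The element was also present in members that were not called, among them Isg15, Oas1a and Stat2. Shown are the 200 bases before the start of 5 members that rose and of Isg15, which did not, in lower case with the element in capitals, on the strand of the gene.
Ifit3, chr19:34583329-34583528, plus strand: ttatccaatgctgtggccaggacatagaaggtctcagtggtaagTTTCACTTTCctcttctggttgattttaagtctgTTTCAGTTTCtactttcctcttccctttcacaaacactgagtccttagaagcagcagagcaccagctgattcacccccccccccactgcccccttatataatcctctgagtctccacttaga
Igtp, chr11:58199356-58199555, plus strand: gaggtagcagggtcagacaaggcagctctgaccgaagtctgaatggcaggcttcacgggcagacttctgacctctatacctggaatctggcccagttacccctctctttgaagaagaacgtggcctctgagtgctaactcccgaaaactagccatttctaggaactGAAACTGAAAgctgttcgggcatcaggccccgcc
Irgm2, chr11:58214777-58214976, plus strand: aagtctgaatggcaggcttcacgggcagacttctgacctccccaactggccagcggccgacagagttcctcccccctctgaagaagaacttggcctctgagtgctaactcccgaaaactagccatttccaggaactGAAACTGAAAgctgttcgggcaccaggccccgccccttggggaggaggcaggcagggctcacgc
Gbp3, chr3:142559844-142560043, plus strand: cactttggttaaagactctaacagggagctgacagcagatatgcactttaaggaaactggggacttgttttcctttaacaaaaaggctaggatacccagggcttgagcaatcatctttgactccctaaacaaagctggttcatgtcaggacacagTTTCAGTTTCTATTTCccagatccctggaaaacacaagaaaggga
Gbp7, chr3:142530136-142530335, plus strand: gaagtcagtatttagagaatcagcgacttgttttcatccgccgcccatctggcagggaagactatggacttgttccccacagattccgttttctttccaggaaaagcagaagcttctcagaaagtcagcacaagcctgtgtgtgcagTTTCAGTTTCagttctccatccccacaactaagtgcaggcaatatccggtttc
Isg15, chr4:156200819-156201018, minus strand: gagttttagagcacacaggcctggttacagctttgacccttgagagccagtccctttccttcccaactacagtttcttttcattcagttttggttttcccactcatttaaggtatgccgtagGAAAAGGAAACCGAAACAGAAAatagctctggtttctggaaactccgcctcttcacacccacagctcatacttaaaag
Igtp and Irgm2 shared, within the 200 bases shown, an unbroken run of 40 bases upstream of the element, which is cut off at the edge of the Irgm2 stretch, and Gbp3 and Gbp7 shared a run of 13 bases around theirs. A match is a description of the letters, not a measurement of binding, and Isg15 held the element without a call in these libraries.

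In antigen presentation the class I light chain rose, and several heavy-chain and class II genes were not called higher in both fits. B2m, the invariant chain of all class I molecules, had 2738, 3331 and 2525 CPM in P3 villus cells, against 555, 350.0 and 421 CPM in P0 villus cells (log2 2.7 ± 0.26, adjusted p = 1.49e-07, in the plain fit and 1.64 ± 0.26, adjusted p = 7.18e-05, with offsets). The groups were far apart, and the call held with any library left out. Nlrc5, the transactivator of class I genes, had 4.51, 3.02 and 2.48 CPM at P3, against 0.80, 1.02 and 0.285 at P0 (2.24 and 2.41), and Erap1, which trims peptides for class I, had 296, 334 and 244 CPM at P3, against 149, 45 and 67.1 at P0 (1.74 and 1.1). H2-Q1 (1.86 and 1.28) and H2-Q2 (1.71 and 1.33), class I genes with close copies, rose too. Calls in both fits were lost for Nlrc5 without P0 villus 3 or P3 villus 1, for Erap1 without P0 villus 3, for H2-Q1 without P0 villus 3 or P3 villus 2, for H2-Q2 without P0 villus 2, P0 villus 3 or P3 villus 2.

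The classical heavy chains were not called in both fits. H2-K1 had 379.6, 289 and 267 CPM at P3, against 202, 343 and 408 at P0 (-0.03 and 1.03, past the threshold with offsets only), and H2-D1 had 229, 253 and 303 CPM at P3, against 424, 409.6 and 436 at P0 (-0.69 and -0.15, lower in the plain fit only). Psmb10, a subunit of the immunoproteasome, fell, with 26.2, 14.2 and 46.1 CPM in P3 villus cells, against 129, 126 and 173 CPM in P0 villus cells (-2.3 and -1.37). H2-DMa, which loads class II molecules, fell to 1.19, 0.818 and 1.22 CPM in P3 villus, against 3.2, 3.87 and 3.96 CPM in P0 villus (-1.76 and -0.92). H2-Ab1 (0.164, 0.153 and 0.314 CPM at P3, against 0, 0 and 0.122 at P0) rose and H2-DMb2 (0, 0 and 0 CPM at P3, against 0.154, 0.0851 and 0.163 at P0) fell at levels near 0. H2-Ab1 lost the call without P0 villus 1, P0 villus 2, P3 villus 2 or P3 villus 3. Over the list 6 of 25 tested members rose and 3 fell, with medians of 0.33 and 1.03, and without P0 villus 3, 2 rose. The plain fit called 8 higher and 5 lower. The fit with offsets called 13 higher and 3 lower, against 2509 and 3953 of all 16535 tested genes. Of the 17 class I genes it called 11 higher and 1 lower. The median GC content of the members was 53.8%. Ctss, a cathepsin that processes antigens, lies outside the list and had 532, 534 and 489.6 CPM in P3 villus cells, against 94.7, 30.048 and 41.5 CPM in P0 villus cells (log2 3.22 ± 0.34, adjusted p = 3.75e-07, in the plain fit and 2.47 ± 0.33, adjusted p = 2.03e-05, with offsets).

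Several receptors for bacterial lipids and nucleic acids rose. Of 28 tested genes of microbial sensing 7 rose (25%) and 4 fell (14.3%, below the 17.2% of all genes; medians 0.63 and 0.37). Tlr2, a receptor of bacterial lipoproteins, had 6.19, 5.62 and 5.2 CPM in P3 villus cells, against 1.85, 0.851 and 1.02 CPM in P0 villus cells (log2 2.17 ± 0.39, adjusted p = 9.19e-05, in the plain fit and 1.77 ± 0.37, adjusted p = 0.000952, with offsets). Its partner Tlr6 had 1.97, 2.5 and 2.62 CPM at P3, against 0.523, 0.298 and 0.612 at P0 (2.29 and 1.46), and Tlr3, which binds double-stranded RNA, had 3.4, 5.11 and 3.35 CPM at P3, against 1.17, 0.596 and 0.652 at P0 (2.26 and 1.04). Tlr1, the other partner of Tlr2, had 3.4, 3.32 and 4.78 CPM at P3, against 0.431, 0.128 and 0.612 at P0 (3.27 and 2.34), a call lost without P0 villus 1, P0 villus 2 or P3 villus 3.

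Ly96, the co-receptor MD-2 that holds lipopolysaccharide for Tlr4, had 22.1, 23.1 and 15.9 CPM in P3 villus cells, against 4.12, 3.53 and 4.04 CPM in P0 villus cells (log2 2.38 ± 0.19, adjusted p = 2.13e-08, in the plain fit and 1.4 ± 0.18, adjusted p = 1.11e-05, with offsets). Tlr4 itself stayed near 0, with 0, 0.153 and 0.14 CPM at P3, against 0, 0 and 0.0816 at P0, and was not called. Casp1, the inflammasome protease, had 786, 883 and 602 CPM at P3, against 187, 93 and 119 at P0 (2.51 and 1.35), and Naip1, of a family of cytosolic sensors of bacterial secretion proteins with close copies, had 653, 656 and 514 CPM at P3, against 224, 198 and 171 at P0 (1.62 and 0.78). The fall was in Sigirr, an inhibitor of Toll-like receptor signalling (13.5, 8.28 and 18.8 CPM at P3, against 37.3, 61.6 and 47.7 at P0, log2 -1.85 and -0.76), Ticam1, the adaptor TRIF (-1.59 and -0.70), Nlrp6 (-1.13 and -0.55) and Pycard, the inflammasome adaptor ASC (229.7, 165 and 235 CPM at P3, against 343, 425 and 484 at P0, log2 -0.99 and -1.36). Tlr5, the flagellin receptor, was called in neither fit, with 28.9, 25.7 and 23.7 CPM at P3, against 25.8, 11.5 and 9.95 at P0. Myd88, the main adaptor, was lower in the plain fit and higher with offsets (-0.61 and 0.84).

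Few NF-kappaB targets and cytokines were called in both fits. Of 32 tested, 3 rose and 4 fell. Ccl6, a chemokine, had 219.9, 278 and 241 CPM in P3 villus cells, against 33.3, 79.1 and 57.2 CPM in P0 villus cells (2.12 and 1.22), and Ccl25, the small-intestinal chemokine that draws lymphocytes, had 691, 569.7 and 592 CPM at P3, against 329.7, 361 and 304 at P0 (0.90 and 0.78). Birc3 also rose (0.94 and 0.47). Zc3h12a, the RNase Regnase-1 that limits cytokine mRNA, fell to 3.16, 2.15 and 3.04 CPM in P3 villus, against 22.5, 13.2 and 18.3 CPM in P0 villus (-2.69 and -1.67). Nfkb2 (-2.11 and -0.74), Tnip1 (-1.76 and -0.67) and Cxcl16 (-1.52 and -1.9) fell as well, with calls lost for Nfkb2 without P0 villus 2, P3 villus 1 or P3 villus 2, for Tnip1 without P0 villus 2 or P3 villus 2, for Cxcl16 without P0 villus 1, P0 villus 2, P3 villus 1 or P3 villus 3. Nfkbia (-0.58 and -0.36) and Tnfaip3 (0.06 and -0.44), early targets and inhibitors of the pathway, were called in neither fit.

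A few antimicrobial effectors rose. Of 26 tested 4 rose (15.4%, against 11.0% of all genes) and none fell. Reg3b, a secreted C-type lectin that binds bacteria, had 207, 627 and 205 CPM in P3 villus cells, against 17.5, 5.24 and 26.8 CPM in P0 villus cells (log2 4.39 ± 1.32, adjusted p = 0.00844, in the plain fit and 4.57 ± 1.38, adjusted p = 0.015, with offsets). Reg3g, a lectin that kills Gram-positive bacteria, had 63.5, 197 and 76.9 CPM in P3 villus cells, against 6.03, 3.49 and 12.5 CPM in P0 villus cells (log2 3.94 ± 1.21, adjusted p = 0.00955, in the plain fit and 3.41 ± 1.2, adjusted p = 0.0334, with offsets). P3 villus 2 was the highest library of both genes, and their groups did not overlap. Pigr, the receptor that carries immunoglobulin A across the epithelium, had 699, 565 and 749.5 CPM at P3, against 250.3, 265 and 371 at P0 (1.18 and 1.18), and Itln1, a lectin of goblet and Paneth cells, had 1035, 1291 and 1672 CPM at P3, against 349, 1012 and 704 at P0 (0.95 and 1.13). Calls in both fits were lost for Reg3b without P0 villus 2 or P3 villus 2, for Reg3g without P0 villus 1, P0 villus 2, P0 villus 3 or P3 villus 2, for Itln1 without P0 villus 1 or P3 villus 3. The closely similar Reg3 genes could share reads. The plain fit alone had 9 higher and 2 lower.

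The effectors Camp and Lyz1 were low in both groups, and neither was called. Camp, the cathelicidin peptide, had 0.205, 0.204 and 0.489 CPM at P3, against 0.431, 0.213 and 0.122 at P0, and Lyz1, Paneth cell lysozyme, had 15.3, 9.66 and 9.84 CPM at P3, against 7.41, 12 and 12.8 at P0. In P10 villus Camp stood at 2.46, 1.94 and 2.41 CPM and Lyz1 at 279, 400.5 and 145 CPM.

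**Figure D3:**
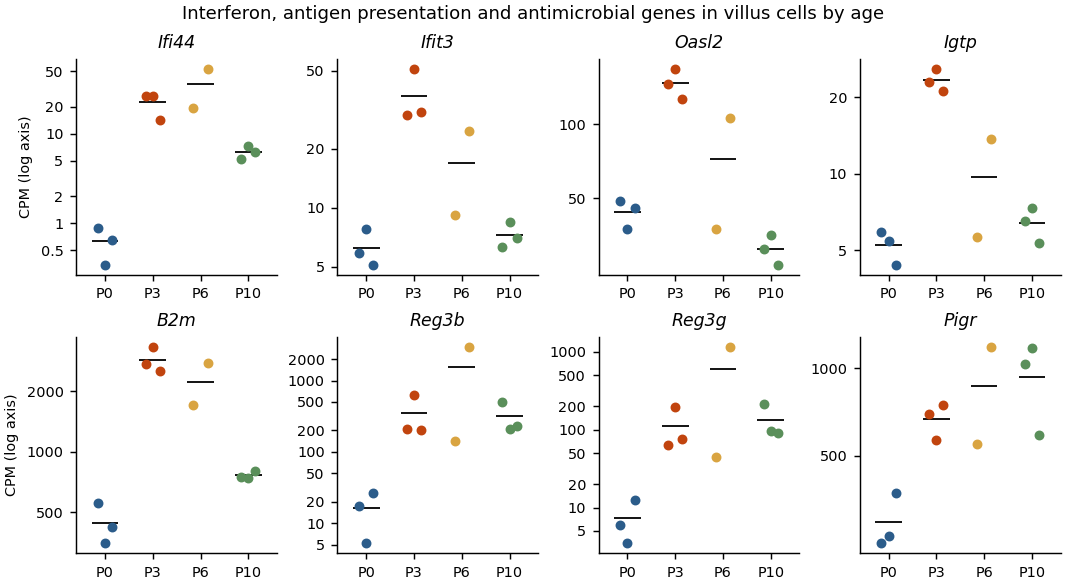
CPM per library on a log axis in villus cells at P0, P3, P6 and P10 for Ifi44, Ifit3, Oasl2, Igtp, B2m, Reg3b, Reg3g and Pigr, with a line at each group mean. CPM are not adjusted for GC content, which was lowest in the P6 villus libraries. Ifit3 and Igtp at P10 lie near their P0 values (Ifit3 6.31, 8.44 and 6.98 CPM at P10) and Oasl2 lies below its own, whereas Reg3b, Reg3g and Pigr lie above theirs.

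At later ages the families differed in level. P10 villus is set beside these values because its GC content is close to that of P0 villus. The GC content of P6 villus was 45.6% ± 0.182 (SD, n = 2), further from P0 villus than that of P3 villus. The CPM given for P6 are not adjusted for GC content. Both comparisons share the P0 villus libraries, so the values are given side by side only. In P10 villus against P0 villus 10.5% of all tested genes were called higher and 11.0% lower in the plain fit. Of the 45 interferon-induced genes 3 were then higher and 2 lower (median 0.15), and of the 26 antimicrobial effectors 12 were higher (median 1.62). Oasl2 had 37.6 and 106 CPM at P6 and 31, 35.3 and 26.7 CPM at P10. Igtp had 5.65 and 13.7 CPM at P6 and 6.5, 7.29 and 5.31 CPM at P10. Reg3g had 44.2 and 1152 CPM at P6 and 215, 95.8 and 90.3 CPM at P10.

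Crypt cells of the same ages gave smaller values for many interferon-induced genes and for B2m. Antimicrobial effectors differed less. Their median log2 differences in crypt were 0.78 in the plain fit and 0.68 with offsets, against 0.96 and 0.84 in villus. In crypt, 5.13% of all tested genes rose in both fits between P3 and P0 and 14.5% fell, and 3 of the 45 interferon-induced genes rose, with 1 lower. Oasl2 had a log2 difference of 0.36 in crypt in the plain fit, Ifit3 0.55, Irgm2 0.69 and B2m 1.28. The difference between the villus and the crypt change was tested in its own right (interaction). It was called for none of the tested genes by edgeR's quasi-likelihood test (0%), with 1696 genes at an unadjusted p under 0.05 and a smallest adjusted p of 0.441, while DESeq2 called 3. Without P0 villus 1 the interaction was called for 1513 genes, and without any other of the 6 libraries for none. No change named here can therefore be called particular to villus cells with all libraries in the fit.

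Glycolytic enzymes were lower in P3 villus cells across most of the pathway. Of 27 tested genes of glycolysis and the hypoxia response, 15 fell and none rose (medians -1.27 and -1.11). Of these, 12 were among the 14 genes grouped as glycolytic, not all of them enzymes (medians -1.66 and -1.32). Only 3 of 13 hypoxia responders fell (medians -0.52 and 0.10), and none of them without P0 villus 2. Pfkl, the liver-type phosphofructokinase that commits glucose to breakdown, had 30.7, 19.1 and 44.1 CPM in P3 villus cells, against 186, 510.1 and 224 CPM in P0 villus cells (log2 -3.29 ± 0.37, adjusted p = 6.71e-07, in the plain fit and -2.41 ± 0.29, adjusted p = 6.8e-06, with offsets). Eno1, enolase, had 9.39, 3.42 and 12.8 CPM in P3 villus cells, against 38.2, 133 and 92.3 CPM in P0 villus cells (-3.35 and -2.22). Gpi1 (-2.09 and -1.43), Aldoa (-2.57 and -1.23), Tpi1 (-1.42 and -0.99) and Pkm (41.4, 26.6 and 49.6 CPM at P3, against 121, 290.1 and 206 at P0, log2 -2.39 and -1.64) fell in the same way. Ldha, which turns pyruvate into lactate, had 470.0, 351 and 409.9 CPM at P3, against 772, 1368 and 873 at P0 (-1.29 and -1.11).

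P0 villus 2 was the highest P0 library for each of these, and for some members it decided the call. Slc16a3, the lactate exporter MCT4, had 0.451, 0.204 and 0.489 CPM in P3 villus cells, against 2.52, 27.6 and 3.14 CPM in P0 villus cells (-4.81 and -3.38). Slc2a1, the glucose transporter of fetal cells, had 8.08, 8.89 and 8.38 CPM in P3 villus cells, against 30.048, 111 and 20.8 CPM in P0 villus cells (-2.68 and -1.52). P4ha1, a collagen hydroxylase induced by low oxygen, had 3.73, 3.27 and 3.07 CPM at P3, against 2.95, 22.4 and 5.34 at P0 (-1.6 and -2.42), so that its P0 and P3 libraries overlapped. For Hk1 (-1.63 and -1.61), Hk2 (-1.68 and -1.42), Pgk1 (-0.84 and -1.19), Pgam1 (-1.27 and -1.11) and Egln3 (-0.96 and -1.11), calls depended on single libraries too. The call of both fits was lost for Slc16a3, Pgk1 and Pgam1 without P0 villus 2, for Hk2 and Egln3 without P0 villus 2, P3 villus 1 or P3 villus 3, for Slc2a1 without P0 villus 2 or P3 villus 3, for P4ha1 without P0 villus 2, P3 villus 2 or P3 villus 3, for Hk1 without P0 villus 2 or P3 villus 1. Without P0 villus 2, 7 members of the list fell instead of 15. Gapdh (7.05, 6.49 and 7.01 CPM at P3, against 8.18, 6.13 and 11.9 at P0) and Pfkp (169, 131 and 158 CPM at P3, against 169, 204 and 162 at P0) were not called in both fits. The sources used here do not say how reads of several alignments were counted. The part of this in the low Gapdh values, and in those of other glycolytic genes, was not tested.

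In P10 villus 16 of the 27 were lower than in P0 villus (median -0.94), and in crypt 15 of the 27 fell between P3 and P0. Pfkl had a log2 difference of -1.35 at P10 against P0 and of -2.82 in crypt. Vegfa, the vascular growth factor induced by low oxygen, was called in neither fit, with 84.4, 117 and 68 CPM at P3, against 134, 173 and 80.049 at P0.

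Many genes of sterol synthesis fell in P3 villus cells. Of 28 tested genes of cholesterol synthesis and its control 15 fell and 1 rose (medians -0.89 and -0.80). Mvd, mevalonate diphosphate decarboxylase, had 2.17, 1.48 and 4.33 CPM in P3 villus cells, against 12.5, 105 and 22.1 CPM in P0 villus cells (log2 -4.1 ± 0.63, adjusted p = 2.05e-05, in the plain fit and -2.64 ± 0.53, adjusted p = 0.000892, with offsets). Mvk, mevalonate kinase, had 0.656, 0.46 and 1.54 CPM at P3, against 4.61, 32.6 and 9.66 at P0 (-4.09 and -2.5), and Pmvk (-2.38 and -1.36), Fdps (-2.59 and -2.1) and Dhcr7 (-1.43 and -1.19), the last enzyme before cholesterol, fell with any library left out. P0 villus 2 was again the highest library of each. The enzymes Fdft1 (-0.99 and -1.21), Sqle (-0.78 and -1.26) and Lss (-1.02 and -1.59) fell with all libraries in the fit.

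The regulators moved the same way. Srebf2, the transcription factor that turns on sterol synthesis, had 24.1, 22.4 and 38.7 CPM in P3 villus cells, against 120.1, 175 and 92.9 CPM in P0 villus cells (-2.19 and -0.83), and Srebf1, its relative for fat synthesis, had 24.1, 17.3 and 31.2 CPM at P3, against 188, 207 and 142 at P0 (-2.88 and -1.63). Both kept the call with any library left out. Insig1, a sterol sensor, fell as well (-1.32 and -1.94). Calls of both fits were lost for Fdft1 without P0 villus 2, P3 villus 1 or P3 villus 2, for Sqle without P0 villus 2 or P3 villus 1, for Lss without P0 villus 2, for Insig1 without P0 villus 2, P3 villus 1 or P3 villus 3, and without P0 villus 2 the list had 8 that fell. Abca1, which exports cholesterol from the cell, rose, with 17.7, 8.99 and 4.75 CPM at P3, against 3.17, 0.979 and 0.938 at P0 (2.6 and 2.18), and lost the call without P3 villus 1. The sterol regulatory element, searched as TCACNCCAC on either strand in the same promoter windows, lay in 1 of 20 matched members (Hmgcs1) and in 1.436% of all genes with a window. Hmgcs1 was not called in the plain fit, and 0 of the 10 matched members called in both fits held the element.

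Fatty acid synthesis fell with it. Fasn, fatty acid synthase, had 16.8, 11.9 and 26.2 CPM in P3 villus cells, against 104, 278 and 78 CPM in P0 villus cells (log2 -3.06 ± 0.42, adjusted p = 4.91e-06, in the plain fit and -1.71 ± 0.35, adjusted p = 0.00102, with offsets). Acaca, which makes its substrate malonyl-CoA, had 6.68, 4.96 and 4.43 CPM at P3, against 10.9, 27.8 and 12.6 at P0 (-1.67 and -1.93), and the desaturases Fads1 (-1.4 and -1.39) and Fads2 (-1.96 and -1.75) fell too. Scd1, stearoyl-CoA desaturase, had 0.697, 0.256 and 0.14 CPM in P3 villus cells, against 4.61, 17.1 and 5.59 CPM in P0 villus cells (-4.63 and -4.25). Scd2, the desaturase of fetal and newborn tissues, had 18.9, 23 and 6.63 CPM in P3 villus cells, against 88.5, 3016 and 76.8 CPM in P0 villus cells, a range set by P0 villus 2 (-6.04 and -6.52). Without P0 villus 2 its plain log2 difference was -2.36 and the call of both fits was lost. Acly, which makes cytosolic acetyl-CoA, was called in neither fit (78, 82.2 and 84.9 CPM at P3, against 119.7, 94.1 and 75.2 at P0). In all 6 of 12 tested genes fell and none rose, with 2 higher in the plain fit alone.

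**Figure D4:**
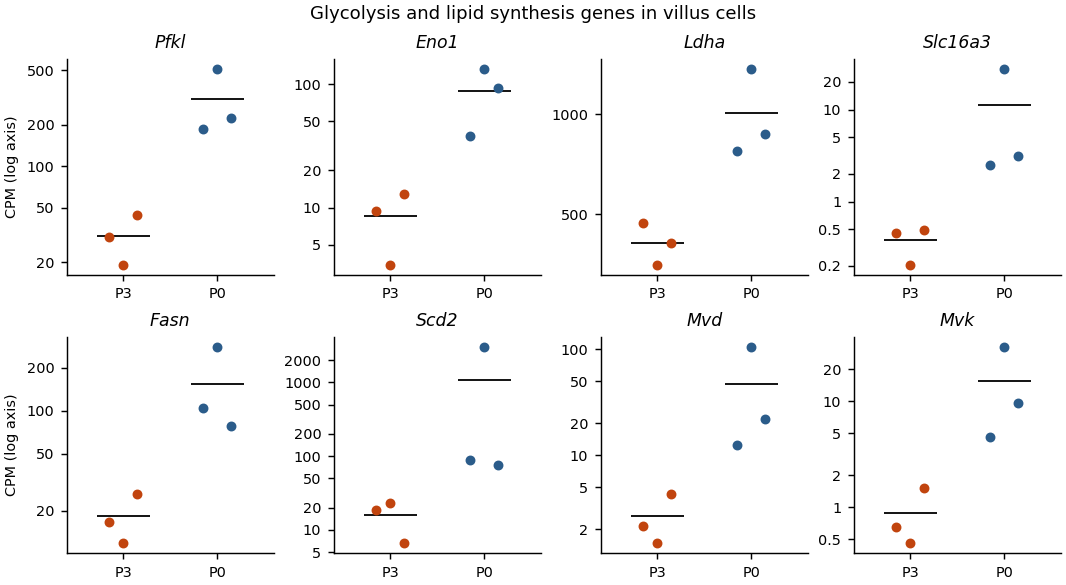
CPM per library on a log axis for Pfkl, Eno1, Ldha, Slc16a3, Fasn, Scd2, Mvd and Mvk in P3 villus and P0 villus, with a line at each group mean. All P3 points lie below all P0 points in each panel, and 1 P0 library stands well above the others for Slc16a3, Scd2, Mvd and Mvk.

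Several lysosomal membrane proteins and a few hydrolases were higher in P3 villus cells. Of 41 tested lysosomal genes 8 rose and 2 fell (medians 0.38 and 0.39). By role, 4 of 9 membrane proteins and regulators rose. Of the enzymes, 1 of 9 proteases, 1 of 15 glycosidases and 2 of 8 lipid enzymes and transporters rose, against 11.0% of all tested genes. Lamp2, a main protein of the lysosomal membrane, had 1243, 1379.9 and 931 CPM in P3 villus cells, against 335, 169 and 175 CPM in P0 villus cells (log2 2.39 ± 0.26, adjusted p = 5.16e-07, in the plain fit and 1.21 ± 0.22, adjusted p = 0.000271, with offsets). Ctsh, a cathepsin, had 279, 232 and 309.6 CPM at P3, against 79.2, 69.970 and 65.9 at P0 (1.93 and 2.03). Mcoln3, a cation channel of endosomes and lysosomes that marks neonatal enterocytes, had 599.6, 849 and 488 CPM at P3, against 243, 179 and 142 at P0 (1.78 and 1.49). Asah1 (1.56 and 1.38), Ppt1 (1.68 and 1.31) and Laptm4a (1.49 and 1.03) rose with any library left out, and Lamp1 (0.65 and 0.56) lost the call without P0 villus 3, P3 villus 1, P3 villus 2 or P3 villus 3.

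The abundant proteases did not pass both fits. Ctsl had 3062, 4528 and 3359 CPM at P3, against 1027, 322 and 725 at P0 and was higher in the plain fit only (2.4 and 1.67), and Ctsb had 1957, 1704 and 2067 CPM at P3, against 1216, 1759.8 and 1099.7 at P0 and was called in neither. Tfeb, the transcription factor that drives lysosomal genes, fell to 11.8, 6.69 and 17.1 CPM in P3 villus, against 84.4, 112 and 99.99 CPM in P0 villus (-3.05 and -1.12). Smpd1, acid sphingomyelinase, fell as well (-1.35 and -0.59), a call lost without P0 villus 2, P0 villus 3, P3 villus 1 or P3 villus 2.

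Some genes of the proton pump that acidifies lysosomes rose. Of 16 tested genes 4 rose, among them Atp6v1a, a catalytic subunit, with 309, 359 and 232 CPM at P3, against 161, 119 and 96.4 at P0 (1.26 and 0.97), and Atp6ap2, an accessory subunit, with 564, 674 and 417 CPM at P3, against 216, 85 and 107 at P0 (2.02 and 0.81). Atp6v1c1 (1.15 and 1.58) and Atp6ap1 (0.92 and 0.93) were the others. Atp6v1f fell (-1.27 and -0.35), a call lost without P0 villus 2.

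Uptake of milk proteins depends on receptors and clathrin adaptors at the apical surface. Dab2, the adaptor of this endocytic machinery in suckling enterocytes, had 729.9, 838 and 595 CPM in P3 villus cells, against 208, 163 and 149 CPM in P0 villus cells (log2 2.06 ± 0.39, adjusted p = 0.000159, in the plain fit and 1.2 ± 0.39, adjusted p = 0.0213, with offsets). The groups were far apart, but the fit with offsets lost the call without P0 villus 2, P0 villus 3 or P3 villus 2. Cubn, the receptor that Dab2 serves, had 631, 453 and 584 CPM at P3, against 286, 272 and 145 at P0 and was higher in the plain fit only (1.24 and 0.66), and Lrp2, megalin, had 96.2, 26.9 and 50.5 CPM at P3, against 12.2, 18.7 and 6.77 at P0 with the same outcome (2.21 and 1.78). Amn, which anchors Cubn at the membrane, had 58.2, 35.8 and 72.1 CPM at P3, against 232, 305 and 203 at P0 and was lower in the plain fit only (-2.15 and -0.27). Fcgrt, the heavy chain of the receptor that takes up antibodies from milk, was called in neither fit, with 2193, 1299 and 2760.4 CPM at P3, against 2278, 2274 and 2533 at P0. Rab11a, of the recycling endosome, rose (798, 857 and 583 CPM at P3, against 241, 296 and 244 at P0, log2 1.52 and 0.80), and so did Snx5 (1.55 and 0.55). Pllp, plasmolipin, fell (7.42, 6.18 and 7.92 CPM at P3, against 17.3, 28.1 and 25.4 at P0, log2 -1.71 and -0.98). Over the list 4 of 17 rose and 3 fell, and 2 rose without P0 villus 2, P0 villus 3 or P3 villus 2.

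Most genes of the suckling type of enterocyte were not called in both fits. Prdm1, the repressor that holds the intestine in its suckling state, had 337, 292 and 261 CPM in P3 villus cells, against 127, 89.1 and 78 CPM in P0 villus cells (log2 1.6 ± 0.20, adjusted p = 1.38e-06, in the plain fit and 1.0 ± 0.15, adjusted p = 4.38e-05, with offsets). Nox4, an oxidase that makes hydrogen peroxide, had 338, 426 and 258 CPM at P3, against 67, 50.3 and 22.3 at P0 (2.87 and 1.81). Together with Dab2 they were the 3 of 15 tested members that rose, and none fell, with 5 higher and 1 lower in the plain fit alone. Lct, the lactase that splits milk sugar, had 2413, 2053 and 2679 CPM at P3, against 2872, 2027 and 1795 at P0, and Alpi, alkaline phosphatase, had 1169, 861 and 1167 CPM at P3, against 1136, 1222 and 914 at P0, and neither was called. Sis, the sucrase-isomaltase of the weaned intestine, had 19.6, 40.5 and 17.7 CPM at P3, against 5.44, 10.7 and 6.81 at P0 and was higher in the plain fit only (1.76 and 0.41).

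Genes of iron export rose and zinc importers fell. Slc40a1, ferroportin, the exporter that passes iron into the blood, had 1735, 1805 and 1274 CPM in P3 villus cells, against 601, 365 and 285 CPM in P0 villus cells (log2 1.94 ± 0.34, adjusted p = 6.57e-05, in the plain fit and 2.0 ± 0.39, adjusted p = 0.000647, with offsets). Heph, the oxidase that works with it, had 595, 703 and 501 CPM at P3, against 260.3, 139 and 146 at P0 (1.72 and 0.89). Slc30a1, which exports zinc, had 283, 351 and 203 CPM at P3, against 202, 79.6 and 90.9 at P0 (1.17 and 1.55), and Slc30a10, a manganese exporter, had 245, 262 and 184 CPM at P3, against 114, 79 and 73.2 at P0 (1.37 and 0.82). The zinc importer Slc39a4 fell to 39.1, 32.7 and 56 CPM in P3 villus, against 177, 194 and 124 CPM in P0 villus (-1.95 and -0.97), and Slc39a5 fell too (-2.31 and -0.84). Mt1, a metallothionein that binds zinc, had 235, 74.1 and 176 CPM at P3, against 236, 838 and 748 at P0 and was lower in the plain fit only (-1.91 and -1.16). Slc11a2, the apical iron importer, was called in neither fit (360.3, 464 and 366 CPM at P3, against 327, 319 and 218 at P0). In all 5 of 18 tested genes of iron, copper and zinc rose and 3 fell, including Mt3 near 0 (0.041, 0.0511 and 0 CPM at P3, against 0.338, 1.19 and 1.22 at P0). The copper importer Slc31a1 rose (1.49 and 0.43), with the call lost without P0 villus 1, P0 villus 3, P3 villus 1 or P3 villus 2.

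A few brush border genes of peptide digestion rose. Mep1a, the alpha subunit of meprin, had 964, 904 and 846 CPM in P3 villus cells, against 433, 317 and 291 CPM in P0 villus cells (log2 1.38 ± 0.24, adjusted p = 5.71e-05, in the plain fit and 0.90 ± 0.22, adjusted p = 0.00338, with offsets), and Dpp4, which takes dipeptides off proline-containing peptides, had 754, 695 and 531 CPM at P3, against 276, 158 and 171 at P0 (1.71 and 0.59). Slc6a20a, a transporter of proline, had 117, 125 and 96.9 CPM at P3, against 61.4, 50.2 and 49.2 at P0 (1.07 and 0.68). Xpnpep2 rose by less (0.54 and 0.46). Calls of both fits were lost for Dpp4 without P0 villus 2, P0 villus 3, P3 villus 1 or P3 villus 3, for Xpnpep2 without P3 villus 2 or P3 villus 3. Anpep, aminopeptidase N, had 2131, 2119 and 2358 CPM at P3, against 4863, 2093 and 3096 at P0 and was called in neither fit. Ggt1, which splits glutathione at the surface, fell to 13.2, 8.79 and 18.1 CPM in P3 villus, against 56.9, 359 and 127 CPM in P0 villus (-3.75 and -2.55). Of 26 tested genes 4 rose (15.4%, against 11.0% of all genes) and 1 fell, with 6 that rose without P0 villus 1 and 2 without P3 villus 3, and medians of 0.67 and 0.56.

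**Figure D5:**
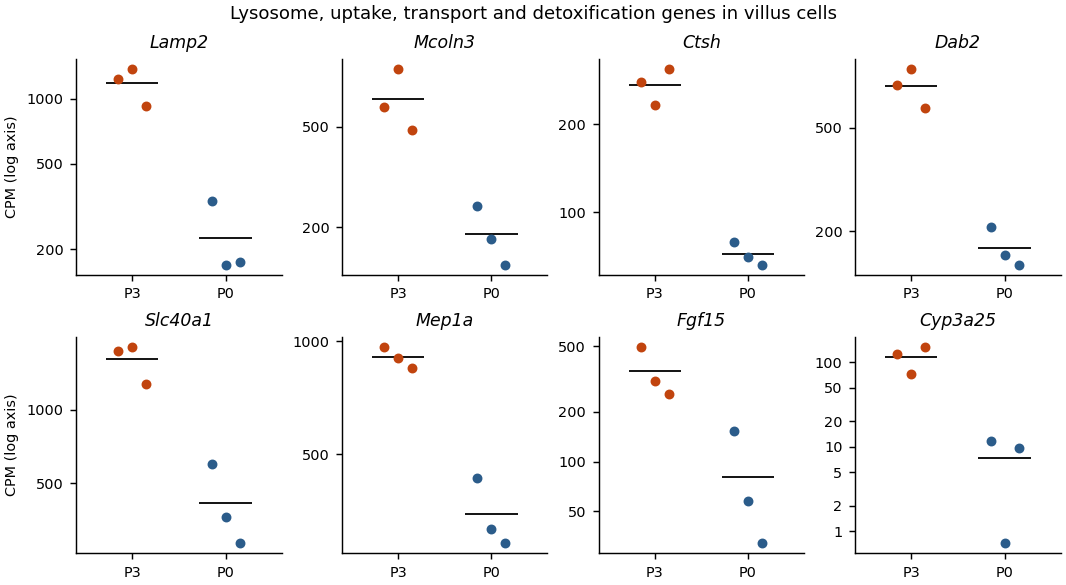
CPM per library on a log axis for Lamp2, Mcoln3, Ctsh, Dab2, Slc40a1, Mep1a, Fgf15 and Cyp3a25 in P3 villus and P0 villus, with a line at each group mean. The 3 P3 points lie above the 3 P0 points in each panel.

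Few fat absorption genes were called in both fits. Fabp1, the liver-type fatty acid binding protein, had 7158, 5389.8 and 5677 CPM at P3, against 3219, 5512 and 5455 at P0 and was called in neither fit. Fabp2, its intestinal relative (1.2 and 0.16), Apob, the scaffold of chylomicrons (1.64 and 0.71), Mttp, which loads them (0.91 and 0.29), and the fatty acid receptor Cd36 (358, 634 and 377 CPM at P3, against 129.8, 64.7 and 90.6 at P0, log2 2.26 and 0.99) were higher in the plain fit only. Apoa4, a chylomicron protein, had 10695, 7447 and 16739 CPM at P3, against 21085, 18985 and 23132 at P0 and was called in neither. Those that rose were Apobec1, the editor of Apob mRNA (0.75 and 0.77), Mogat1 (2.19 and 1.81) and Pnliprp2, a lipase of suckling animals (1.25 and 1.04), with calls lost for Apobec1 without P0 villus 2 or P3 villus 2, for Mogat1 without P0 villus 1, P0 villus 3, P3 villus 1 or P3 villus 3, for Pnliprp2 without P0 villus 2 or P3 villus 3. Enzymes that release fatty acids inside the cell fell: Mgll, monoglyceride lipase, to 2.3, 1.38 and 2.23 CPM in P3 villus, against 5.81, 17.4 and 17.7 CPM in P0 villus (-2.78 and -2.13), Pnpla2, adipose triglyceride lipase (-2.22 and -1.01), and Lipe (-1.68 and -0.76, lost without P0 villus 2, P3 villus 1, P3 villus 2 or P3 villus 3). In all 3 of 39 tested genes rose and 3 fell, with 5 that rose without P0 villus 1, and 1 without P0 villus 2 or P3 villus 3.

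Fatty acid oxidation split. Ppargc1a, a coactivator of mitochondrial genes, had 35.8, 34.1 and 22.6 CPM in P3 villus cells, against 12.8, 11.7 and 9.26 CPM in P0 villus cells (1.45 and 0.90). Etfa, which passes electrons from the oxidation enzymes, rose (1.41 and 0.51), and Decr1 (1.46 and 0.43), Acadm (0.46 and 0.34) and Acot4 (1.01 and 1.04) rose with calls lost for Decr1 without P0 villus 1, P0 villus 2, P3 villus 1, P3 villus 2 or P3 villus 3, for Acadm without P0 villus 2, P0 villus 3, P3 villus 1, P3 villus 2 or P3 villus 3, for Acot4 without P3 villus 2. Ppara, the receptor that drives oxidation genes, fell to 14, 11.9 and 7.96 CPM in P3 villus, against 28.1, 23.2 and 19.9 CPM in P0 villus (-1.07 and -1.2). Acads (-2.52 and -1.02), Etfb (-2.38 and -1.05) and Ucp2 (38.6, 38.7 and 71.3 CPM at P3, against 233, 269.7 and 295 at P0, log2 -2.42 and -1.51) fell as well. The list had 5 that rose and 4 that fell of 36, with 2 that rose without P3 villus 2 and 7 that fell without P0 villus 2.

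Lactose gives galactose, and Galk1, the galactokinase that takes it into metabolism, fell. It had 43.5, 23.2 and 63.3 CPM in P3 villus cells, against 217, 389 and 291 CPM in P0 villus cells (log2 -2.78 ± 0.42, adjusted p = 1.54e-05, in the plain fit and -1.05 ± 0.28, adjusted p = 0.00613, with offsets). Ugp2, which makes UDP-glucose, rose (707, 975 and 554 CPM at P3, against 287, 173 and 188 at P0, log2 1.79 and 0.53), a call lost without P3 villus 2. The sugar transporters Slc5a1 (0.62 and 0.01) and Slc2a2 (2.02 and 0.94) were higher in the plain fit only. Of 9 tested genes of gluconeogenesis none rose and 3 fell: Pck2 (-1.4 and -0.70), Got1 (55.6, 53.1 and 54.1 CPM at P3, against 115, 104 and 140.4 at P0, log2 -1.14 and -1.11) and Slc25a10 (-2.83 and -1.26), with 1 higher in the plain fit alone. Pck1, the cytosolic enzyme of glucose formation, had 2211, 2763 and 2089 CPM at P3, against 2309, 737 and 1212 at P0 and was called in neither fit.

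The hormone Fgf15, which the gut releases to the liver when bile acids arrive, had 494, 309 and 258 CPM in P3 villus cells, against 153, 57.8 and 32.2 CPM in P0 villus cells (log2 2.13 ± 0.47, adjusted p = 0.00064, in the plain fit and 2.78 ± 0.53, adjusted p = 0.000634, with offsets). It was the 1 of 10 tested bile acid genes that rose, and none fell in both fits, with 2 higher and 1 lower in the plain fit alone. Fabp6, a bile acid carrier of the distal gut, was called in neither fit (20.8, 1.94 and 2.37 CPM at P3, against 1.54, 9.7 and 2.49 at P0). Cyp3a25, a cytochrome of drug and steroid metabolism, had 124, 72.8 and 152 CPM in P3 villus cells, against 11.8, 0.724 and 9.79 CPM in P0 villus cells (log2 3.96 ± 0.77, adjusted p = 0.000239, in the plain fit and 2.96 ± 0.78, adjusted p = 0.00672, with offsets), and P0 villus 2 was lowest by far. The sulfotransferases Sult1d1 (1352, 1562 and 912 CPM at P3, against 309.6, 129 and 148 at P0, log2 2.7 and 1.63) and Sult1b1 (967, 1175 and 678 CPM at P3, against 205, 213 and 139 at P0, log2 2.34 and 1.04) rose, as did Abcg2, an apical efflux pump (1.69 and 1.04). Cyp3a11 (2.01, 2.96 and 4.96 CPM at P3, against 0.492, 0 and 0.326 at P0), Sult1c2 (1.07, 4.86 and 3.63 CPM at P3, against 0.523, 0.468 and 0.122 at P0), Ahr, the receptor of aryl hydrocarbons (1.31 and 0.58), and its repressor Ahrr near 0 (0.205, 0.511 and 0.349 CPM at P3, against 0.0923, 0 and 0 at P0) rose too. Calls were lost for Cyp3a11 without P0 villus 2 or P3 villus 3, for Sult1c2 without P0 villus 3, P3 villus 2 or P3 villus 3, for Ahr without P0 villus 2, P0 villus 3 or P3 villus 1.

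Of the 7 tested glutathione transferases that were on the gene lists 3 fell and none rose. Other genes of this family were not counted. Gstm3 had 12.2, 9.76 and 12.2 CPM in P3 villus cells, against 25.4, 50.1 and 44.3 CPM in P0 villus cells (-1.81 and -1.55), and Gstm1 (14.6, 11.2 and 19.4 CPM at P3, against 29.3, 49.6 and 51.6 at P0, log2 -1.53 and -1.06) and Gstt1 (-1.7 and -0.97, lost without P0 villus 2 or P3 villus 1) fell with it, while Gsta1, Gsta4, Gstk1 and Gstm6 were not called in both fits. Over xenobiotic metabolism 8 of 41 tested genes rose and 5 fell. In retinol metabolism Isx, the sensor that limits carotenoid uptake, rose (196, 214 and 175 CPM at P3, against 137, 135 and 109.6 at P0, log2 0.62 and 0.71). Rdh7 rose (1.85 and 1.55), and Bco1, the enzyme that cleaves carotene, fell (-1.62 and -1.82). Calls were lost for Rdh7 without P3 villus 3, for Bco1 without P0 villus 3.

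A few genes of hormone-producing cells fell. Sct, secretin, had 9.15, 8.13 and 14 CPM in P3 villus cells, against 38.8, 276 and 295 CPM in P0 villus cells (log2 -4.28 ± 0.63, adjusted p = 1.36e-05, in the plain fit and -2.41 ± 0.49, adjusted p = 0.00106, with offsets). Ghrl, ghrelin, had 9.1, 4.04 and 11.4 CPM in P3 villus cells, against 17, 133 and 203 CPM in P0 villus cells (-3.83 and -2.72), and Pcsk1n, an inhibitor of hormone processing, fell near 0 (0.082, 0.0511 and 0.0698 CPM at P3, against 0.738, 4.3 and 6.2 at P0). P0 villus 1 was the lowest P0 library of each and lay nearer to P3. Nkx2-2 (1.44, 1.43 and 2.41 CPM at P3, against 4.18, 8.85 and 10.8 at P0, log2 -2.16 and -1.22), a transcription factor of this lineage, fell too. Pax4 (-1.74 and -1.09) and Tph1, which makes serotonin (-0.95 and -1.72), fell, with calls lost for Pax4 and Tph1 without P0 villus 2, P0 villus 3, P3 villus 1 or P3 villus 3. Of 29 tested genes 6 fell (20.7%, against 17.2% of all genes) and none rose (medians -0.78 and -0.75). The plain fit had 13 lower and 1 higher, and both fits called 11 lower without P0 villus 1 and 4 without P0 villus 2, P0 villus 3, P3 villus 1 or P3 villus 3.

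Chga, chromogranin A, had 27.2, 45.3 and 42.7 CPM at P3, against 66.9, 239 and 265 at P0, and Cck, cholecystokinin, had 14.9, 21.4 and 24.3 CPM at P3, against 36.7, 132 and 216 at P0, and both were lower in the plain fit only (-2.31 and -0.90 and -2.67 and -1.08). Gcg, the precursor of GLP-1, had 87.4, 104 and 68.5 CPM at P3, against 34, 64.6 and 52.5 at P0 and was called in neither fit. The summed level of 30 genes of the lineage was 832 to 1232 CPM in P3 villus and 554 to 2258 CPM in P0 villus, so that the groups overlapped.

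Goblet cell genes summed to 6125 to 6857 CPM in P3 villus and 4798 to 7413 CPM in P0 villus, and 1 of 19 fell (Klk1, 2.83, 2.86 and 3.94 CPM at P3, against 4.49, 21.4 and 11.1 at P0). Muc2, the main mucin of intestinal mucus, had 267, 179 and 258 CPM at P3, against 109, 176 and 175 at P0 and passed with offsets only (0.62 and 1.02). A few stem cell genes rose. Lgr5, a receptor of crypt base stem cells, had 24.9, 34.2 and 41.8 CPM in P3 villus cells, against 16.5, 10.5 and 6.4 CPM in P0 villus cells (log2 1.59 ± 0.34, adjusted p = 0.000412, in the plain fit and 1.22 ± 0.33, adjusted p = 0.00694, with offsets), and Olfm4 had 345, 556 and 629 CPM at P3, against 231, 66.9 and 85.2 at P0 (2.0 and 1.1). Smoc2 (0.92 and 0.85) and Bmi1 (1.9 and 0.89) rose and Ephb2 fell (-1.53 and -0.47), with calls lost for Olfm4 without P0 villus 2, P0 villus 3 or P3 villus 3, for Smoc2 without P0 villus 3 or P3 villus 3, for Bmi1 without P0 villus 2 or P0 villus 3, for Ephb2 without P0 villus 1, P3 villus 1 or P3 villus 2. Of 20 tested stem cell genes 4 rose and 1 fell, with 1 that rose without P0 villus 3 and 2 without P0 villus 2 or P3 villus 3. In P10 villus 16 were higher than in P0 villus. The P10 villus libraries had 102, 101 and 83.8 CPM of Lgr5. The part of crypt cells in the CD44-negative sort was not tested, and Cd44 had 10.3, 13 and 17.7 CPM at P3, against 10.6, 2.6 and 6.44 at P0.

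Cell cycle genes fell in part, from replication to mitosis. Gins2, of the replication helicase, had 3.81, 1.53 and 5.34 CPM in P3 villus cells, against 12, 11.2 and 15.1 CPM in P0 villus cells (-1.82 and -1.59), and the helicase subunits Mcm3 (-0.78 and -0.72), Mcm5 (-1.21 and -0.72) and Mcm7 (-0.73 and -0.81) fell by less. Ccnb2, a mitotic cyclin, had 23.1, 17.2 and 26 CPM at P3, against 42.4, 37 and 41.9 at P0 (-0.87 and -1.23), and Aurka (-1.15 and -1.26), Aurkb (-0.64 and -0.62) and Birc5 (-0.66 and -1.06) fell too. Plk1 (-1.59 and -0.65) and Cdc20 (-1.4 and -0.70) fell with calls lost for Plk1 without P0 villus 1, P3 villus 2 or P3 villus 3, for Cdc20 without P0 villus 1 or P3 villus 2. Mki67, the proliferation marker Ki-67, was called in neither fit, with 171, 161 and 174 CPM at P3, against 154, 131 and 99.99 at P0. Of 39 tested genes 10 fell and none rose in both fits, whereas the plain fit called 14 higher and 13 lower, and without P0 villus 1 both fits called 2 higher. The list median was 0.31 in the plain fit and -0.33 with offsets, opposite in sign. In P10 villus 18 were higher than in P0 villus and 1 lower in the plain fit. The summed level was 1532 to 1653 CPM in P3 villus and 1176 to 1735 CPM in P0 villus.

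Many factors that build ribosomes fell. Of 26 tested nucleolar genes 12 fell and none rose (medians -0.07 and -0.58), with 6 higher and 12 lower in the plain fit alone, and without P0 villus 3 both fits called 1 higher. Fbl, fibrillarin, which methylates ribosomal RNA, had 2.05, 1.79 and 2.69 CPM in P3 villus cells, against 16.4, 11.4 and 11.5 CPM in P0 villus cells (log2 -2.58 ± 0.27, adjusted p = 2.83e-07, in the plain fit and -1.51 ± 0.28, adjusted p = 0.000335, with offsets). Bop1, a factor of the large subunit, had 12.4, 6.59 and 15.6 CPM at P3, against 55.2, 57.2 and 64.6 at P0 (-2.35 and -1.14), and Rrp9 (-2.6 and -1.1) and Pes1 (-0.76 and -1.05) fell in all the fits that left out a library. Polr1b, a subunit of RNA polymerase I, fell (-0.59 and -0.90), with the call lost without P0 villus 1. Ncl, nucleolin, was higher in the plain fit only (970.4, 1074 and 998 CPM at P3, against 667, 718 and 787 at P0, log2 0.49 and 0.45).

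Some regulators changed by a large factor. Klf5, a transcription factor of proliferating and differentiating gut epithelium, had 50.6, 57.4 and 49.6 CPM in P3 villus cells, against 189.8, 220.0 and 215 CPM in P0 villus cells (log2 -1.99 ± 0.13, adjusted p = 6.9e-09, in the plain fit and -2.76 ± 0.15, adjusted p = 4.07e-10, with offsets). Its transcript has a GC content of 46.8%, and the fall was larger with offsets than without. Fkbp5, a target of the glucocorticoid receptor, had 5.95, 8.18 and 8.69 CPM in P3 villus cells, against 28.8, 55.2 and 57.7 CPM in P0 villus cells (log2 -2.63 ± 0.25, adjusted p = 1.49e-07, in the plain fit and -2.76 ± 0.26, adjusted p = 5.14e-07, with offsets). Per1, a clock gene that glucocorticoids also induce, had 8.12, 8.59 and 12.4 CPM at P3, against 79.3, 83.2 and 59.986 at P0 (-2.93 and -1.5). Klf9 (-0.78 and -1.49) and Cebpd (0.574, 0.613 and 0.454 CPM at P3, against 0.861, 1.32 and 0.897 at P0, log2 -0.91 and -1.01) fell as well, with calls lost for Klf9 without P3 villus 3, for Cebpd without P0 villus 2, P0 villus 3, P3 villus 1 or P3 villus 3, while the receptor Nr3c1 itself rose (199, 265 and 165 CPM at P3, against 143, 80.1 and 95.6 at P0, log2 0.98 and 1.17). In the list of glucocorticoid response 4 of 11 fell and 1 rose. In P10 villus Fkbp5 stood at 7.37, 7.21 and 9.36 CPM and Per1 at 43.7, 54.3 and 64.4 CPM.

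Immediate early genes were low at P3 for some members only. Junb, a subunit of the AP-1 transcription factor, had 10.4, 6.95 and 11 CPM in P3 villus cells, against 393, 242 and 228 CPM in P0 villus cells (log2 -4.92 ± 0.36, adjusted p = 1.16e-08, in the plain fit and -3.1 ± 0.33, adjusted p = 2.29e-06, with offsets). Jund had 46.2, 57.2 and 54.9 CPM at P3, against 446, 675 and 540.1 at P0 (-3.39 and -1.1), and Ier2 had 52.9, 56.3 and 55.5 CPM at P3, against 443, 522 and 464 at P0 (-3.12 and -1.37). Fos, the partner of both, had 666, 1113 and 395 CPM at P3, against 1049.5, 552 and 412 at P0 and was called in neither fit. The mitochondrial chaperones Hspd1 (0.99 and 1.1) and Hspe1 (1.25 and 1.37) rose. Of 26 genes of immediate early and heat shock response 2 rose and 3 fell, and without P3 villus 2 both fits called 7 lower.

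Of 19 tested genes of the unfolded protein and amino acid response 3 fell (15.8%, against 17.2% of all genes) and 1 rose. Those that fell make serine and glycine. Phgdh had 7.55, 2.5 and 4.71 CPM at P3, against 23.5, 39.1 and 24.3 at P0 (-2.55 and -1.6), Shmt2 had 13.2, 10.4 and 18.8 CPM at P3, against 61.5, 142 and 70.3 at P0 (-2.68 and -1.6), and Psat1 fell by less (-1.01 and -1.43). Dnajb9, a chaperone of the endoplasmic reticulum, rose (221, 347 and 134 CPM at P3, against 102, 40.8 and 34.8 at P0, log2 1.98 and 1.07), a call lost without P0 villus 2, P0 villus 3 or P3 villus 2. Gata6, a transcription factor of the gut epithelium, had 304, 388 and 245 CPM at P3, against 285, 179 and 203 at P0 (0.49 and 2.89). Its transcript has a GC content of 66.8%, and its calls in both fits were lost without P0 villus 2, P0 villus 3 or P3 villus 2. Among other regulators Id3 (-2.04 and -1.2) and Notch1 (-1.27 and -0.63, lost without P0 villus 1, P0 villus 2, P3 villus 1 or P3 villus 3) fell. Igf2bp1, an RNA-binding protein of fetal tissues, had 3.2, 17.5 and 5.76 CPM in P3 villus cells, against 32.5, 48.6 and 37.6 CPM in P0 villus cells (-2.18 and -2.35).

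Outside the lists, the genes with the largest values in the fit with offsets included several that moved against the GC trend. Apcdd1, an inhibitor of Wnt signalling, had 21.7, 17 and 24.6 CPM in P3 villus cells, against 7.78, 3.79 and 3.1 CPM in P0 villus cells (log2 2.1 ± 0.55, adjusted p = 0.00276, in the plain fit and 3.26 ± 0.55, adjusted p = 0.000165, with offsets), with a transcript GC content of 58%. Arf6, a GTPase of endocytosis and recycling, had 328, 408 and 285 CPM at P3, against 217, 148 and 157 at P0 (0.97 and 2.59) at a GC content of 60.039%. Cttnbp2 (2.44 and 2.46), Slc43a3 (2.19 and 2.31), Gm13225 (2.72 and 2.71) and Gm21967 (2.49 and 2.49) rose too, with similar values in both fits.

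In the other direction, Ckb, the brain-type creatine kinase, had 8.37, 4.55 and 12.3 CPM in P3 villus cells, against 269.7, 308 and 304 CPM in P0 villus cells (-5.12 and -3.6). H2-Q10, a secreted class I protein, had 2.26, 2.96 and 2.55 CPM in P3 villus cells, against 38.7, 143 and 62.1 CPM in P0 villus cells (-4.97 and -4.18). Eif4ebp1, the brake on translation start that the growth kinase mTOR controls, had 3.57, 3.53 and 11.1 CPM at P3, against 29.4, 62.9 and 47.3 at P0 (-2.93 and -3.45) at a GC content of 48.2%. Sf3b5 (-3.35 and -4.23), a splicing factor, and the nuclear noncoding RNA Malat1 (187, 321 and 159 CPM at P3, against 399, 1565 and 1475 at P0, log2 -2.37 and -3.39) fell at GC contents of 45.5% and 41%. Gm26917 (2.5, 1.18 and 3.42 CPM at P3, against 166, 229 and 396 at P0, log2 -6.77 and -4.37), Gm6472 (-3.24 and -3.41), Gm9800 (-3.77 and -3.25) and BC005561 (-1.56 and -2.93) fell too. The ribosomal protein genes Rps26 (-2.83 and -3.07), Rps10 (-4.0 and -3.04) and Rps21 (-3.49 and -3.03) completed the 12. These genes have many processed copies, between which the counting could split reads. The rule took the 12 with the largest value in the fit with offsets in each direction, of 1122 candidates that rose and 1402 that fell.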

How the data were processed

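The deposited values are raw counts per gene symbol, 1 file per library. The submitters' processing notes name Trim Galore, STAR, HTSeq and the build mm9, with no versions or settings. The strand setting is not given in the sources used here, so reads of overlapping or antisense genes may be mixed. Libraries used a stranded poly(A) kit, per the labels' protocols. Summary lines and rows that name no gene were left out of totals and tests.

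Genes were kept by filterByExpr (minimum count 10, minimum total 15), which left 16535, and tested with edgeR 4.0.16 (R 4.3.3, limma 3.58.1) by a robust quasi-likelihood F test with TMM scaling (factors 0.734 to 1.31). Each of the 8 groups had a coefficient in a model of all 23 libraries, which left 15 residual degrees of freedom at a common dispersion of 0.0622, with Benjamini-Hochberg adjustment over all tested genes at 0.05. Adjusted p-values in the text are from this test. The second fit added an offset per library from natural splines (5 degrees of freedom each) of transcript GC content and log2 length, taken from a GENCODE annotation of GRCm38 by symbol (98.8% of genes). The other tested genes were given no such adjustment, so for them a call in both fits says little more than the plain fit. CPM are edgeR's, with TMM-scaled library sizes. DESeq2 1.42.0 and limma-voom were alternatives. The code was tested on simulated data.

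The comparison, the 52 gene lists and the members described were chosen with earlier results of these data known. Outside the lists the rule named, per direction, 12 genes with mean log2 CPM of at least 3, called in both fits and with each of 6 libraries left out, without overlap. From each list it named up to 4 called and 2 uncalled genes, besides 22 genes named whatever their values. The rule for the interaction named none, as none was called. Some genes these rules name are not reported here. Other list members named were chosen after their values were seen. The counts use mm9 and the reference another build, so no coordinates are given with counts.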

Additional observations from a re-analysis of the deposited data

How the results depend on the processing

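Myd88 was called lower in the plain fit and higher with offsets. No other gene named here was called in opposite directions by these fits. Counts of calls were as follows. For P3 against P0 villus the plain count of 9924 was 6462 with offsets and 6230 with offsets for GC content alone, and 8651 to 10348 with 1 library left out. Genes called in both fits numbered 4673, and 2614 in a fit of only the groups compared, and 3574 (without P0 villus 3) to 5376 (without P0 villus 1) with 1 library left out. For P3 against P0 crypt offsets gave 4611 and GC content alone 4511, with 8369 to 9085 when a library was left out. P10 against P0 villus had 727 calls in a fit of only the groups compared, and 1883 (without P0 villus 3) to 6011 (without P0 villus 1). The interaction had 3 calls by DESeq2, and 0 to 1513 with 1 library left out. A count of list members was taken as moved if it changed by over 1.5 times, or to or from 0. Of 104 counts (52 lists in both directions), 36 moved in a fit of only the groups compared. With the replicate block 36 moved, and with the replicate block and offsets 43. All of these settings fitted only the groups compared. In the last of them the counts are calls of the fit with offsets alone, whereas the others and the reference are calls of both fits. In these settings interferon-induced genes called higher numbered 19, 18 and 21, against 19. Cholesterol synthesis genes called lower numbered 8, 4 and 4, against 15, and genes of glycolysis and the hypoxia response called lower 9, 10 and 12, against 15. KRAB zinc finger genes called higher numbered 16, 14 and 14, against 24. The causes of these differences were not tested, beyond the fewer libraries and offsets that define the alternatives.

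Replicate numbers did not pair P3 with P0 villus: deviations of same-numbered libraries correlated at 0.0312, -0.170 and 0.200. Same-numbered villus and crypt libraries correlated at 0.408, 0.637 and 0.273 at P3, and at -0.151, 0.373 and 0.0320 at P0. With the replicate block the interaction had 0 calls, as without it. Fits with the replicate block also held only the groups compared, so they differ from the fit of all 23 libraries in both respects. With the replicate number as a block the plain villus count was 7258, against 7595 in a fit of only the groups compared without the block. It was 3124 with the replicate block and offsets together. Genes called in both fits numbered 2306 with the replicate block, against 2614 in the fit of only the groups compared. For crypt the replicate block with offsets gave 3425. P10 against P0 villus had 206 calls with the replicate block, against 727 in the fit of only the groups compared, and 264 with the block and offsets.

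Depth limits the genes near 0 CPM, such as Ptprc, H2-Ab1 and Tlr4, whose values rest on a few counts per library.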

Other observations

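Zinc finger genes of the KRAB family, which encode repressors of transposable elements and other DNA, were mostly higher in P3 villus cells. Of 43 tested 24 rose and 1 fell, with medians of 1.6 in the plain fit and 0.60 with offsets. Their median GC content was 42.0%, far below that of all tested genes, so the list lies on the side of the GC trend. Zfp160 had 42.8, 49.982 and 31.7 CPM in P3 villus cells, against 11.2, 6.94 and 9.13 CPM in P0 villus cells (2.19 and 1.56), and Zfp758 had 47.6, 50.9 and 24.5 CPM at P3, against 9.96, 2.94 and 3.91 at P0 (2.85 and 1.67). In P10 villus 24 of the 43 were higher than in P0 villus and none lower (median 0.67). The 1 that fell was Zfp369 (-0.60 and -0.95), with the call lost without P0 villus 2, P0 villus 3, P3 villus 1 or P3 villus 2.

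Cytosolic ribosomal protein genes fell in part, with 17 of 38 lower and 1 higher. Rplp1 had 28.6, 26.7 and 47.8 CPM in P3 villus cells, against 416, 764 and 813 CPM in P0 villus cells (-4.27 and -2.86), and Rps2 had 3.57, 2.3 and 4.64 CPM at P3, against 65.4, 92.5 and 165 at P0 (-4.93 and -3.91). Rpl37 fell at a GC content of 48.3% (-1.88 and -2.21), and Rpl15 rose (61, 62 and 52.4 CPM at P3, against 24.8, 39.3 and 38.9 at P0, log2 0.77 and 1.38). These genes have many processed copies in the genome, and how reads of several alignments were counted is not given in the sources used here.

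Junction and adhesion genes moved both ways. Cldn3, a tight junction claudin, fell to 9.56, 3.58 and 17.8 CPM in P3 villus, against 140.1, 238 and 181 CPM in P0 villus (-4.16 and -2.3), while Cdh1, E-cadherin, rose (1035, 1071 and 1033 CPM at P3, against 910.1, 498 and 499.6 at P0, log2 0.72 and 0.68). Lama3, a laminin chain, rose (1.76 and 1.61), and its partner Lamb3 fell (-2.3 and -1.49). Cldn2, a claudin of leaky junctions, rose (1108, 1206 and 991 CPM at P3, against 790.0, 426 and 468 at P0, log2 0.97 and 0.81), with calls lost without P0 villus 2, P0 villus 3 or P3 villus 2. Tuft cell genes were near 0, with Dclk1 at 0.492, 0.409 and 0.523 CPM at P3, against 0.0923, 0 and 0 at P0 and Pou2f3 at 0.123, 0.102 and 0.209 CPM at P3, against 0, 0.0426 and 0 at P0.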
